A study of Mus musculus with 16 samples.

Results

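The S100 genes described here are S100a1, S100a4, S100a6, S100a8, S100a9, S100a10, S100a11, S100a13, S100a16 and S100b, taken by name from the gene symbols of a single-cell count table of mouse spinal cord. They are 10 of 55487 symbols in that table, of which 41193 had at least 1 unique molecular identifier (UMI, the count of a captured RNA molecule). S100 proteins are small calcium-binding proteins of the EF-hand type that mostly act as dimers, and calcium opens a surface on them to which annexins, cytoskeletal proteins and other targets bind. Some are also released from cells, where S100B, S100A8 and S100A9 are ligands of the receptor for advanced glycation end products (Ager), and S100A8 and S100A9 also act through Toll-like receptor 4 (Tlr4). In nervous tissue S100B is a widely used marker of astrocytes and other macroglia, and S100A8 and S100A9 together form calprotectin, which is abundant in neutrophils.

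The mice carried GFAPcreERT2, a tamoxifen-inducible Cre under a GFAP promoter, together with Rykfl/fl (called cKO) or with Ryk+/+ (called WT), so the controls carried the recombinase too and deletion is limited to cells in which this promoter was active. They were 8 to 10 weeks old, and 7 daily doses of tamoxifen were given, the first of them 5 days ahead of surgery. A dorsal column lesion was made at C5, and spinal cord around it was taken on day 1, 7 or 14 after surgery (1 d, 7 d, 14 d), or from uninjured mice, with 2 mice in each of 8 groups and 1 10x Genomics 3′ library for each of the 16 mice. Mice without a lesion are Sham in the sample labels and uninjured in the paper. With 2 mice a group, and 1 in WT at 1 d, a difference has to be large against the spread between mice to pass a test.

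The authors kept 18203 cells in 17 numbered and named clusters. WT 1 d replicate 2 held 1 cell with 266 UMIs and was left out, and the other 15 libraries held 208 to 1845 cells and 536263 to 9008729 UMIs. The replicate 1 libraries of 1 d and 7 d were shallow, with median depths per cell of 414 UMIs (WT 1 d), 421 (cKO 1 d), 414 (WT 7 d) and 548 (cKO 7 d), against 1040.5 to 3637 in the other 11. These 4 libraries also shared cell barcodes, 28 to 115 in each of their 6 pairs and 341 in all, of which 315 were in the same cluster in both libraries. The other 99 pairs of libraries shared 0 to 4. Groups were taken from the sample titles, but cell names disagree with the titles for 6 mice, each a replicate 2. In those names WT uninjured is cKO uninjured, cKO uninjured is WT 7 d, WT 1 d is WT 14 d, WT 7 d is WT 1 d, WT 14 d is cKO 14 d and cKO 14 d is cKO 7 d.

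Ryk, the Wnt receptor gene that was deleted, had 70.9 and 45.3 counts per 1000000 UMIs (CPM) over all cells of the WT uninjured mice (replicates 1 and 2) and 58.1 and 65.7 in the cKO ones. After injury the WT mice had 74.6 CPM (1 d), 80.0 and 68.6 (7 d) and 52.0 and 69.8 (14 d), and the cKO mice 45.0 and 54.1, 51.8 and 82.4, and 66.2 and 69.5. The genotypes overlapped, as they did in the clusters named Astro, where WT mice ranged from 54.0 to 157 CPM and cKO mice from 23.0 to 123. Tags at the 3′ end can lie outside the deleted part, so these values do not check the genotype.

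The cluster names were compared with lists of marker genes. In Cluster 8 (named Oligo) the 6 oligodendrocyte genes summed to 53275 CPM and in Cluster 4 (Oligo) to 35278 CPM. Of the clusters named Astro, Cluster 5 had 14687 CPM of the 6 astrocyte genes, Cluster 7 had 11021 CPM and Cluster 2 had 7769 CPM. Oligodendrocyte genes reached 21044 CPM in Cluster 2, above its astrocyte genes, and 13375 CPM in Cluster 5, so Cluster 2 is called by its number. Cluster 16, named myeloid Cells, had all 7 neutrophil genes at a sum of 42481 CPM, led by the granule gene Ngp at 17054 CPM. Of the 6 macrophage and antigen-presenting genes in its 119 cells, Ms4a7 and Mrc1 were at 0 UMIs, H2-Aa had 1, Cd74 2 and Ccr2 13 (in 11 cells), and Lyz2, which neutrophils also express, had 2714. Macrophage and antigen-presenting genes summed to 16722 CPM in Cluster 12 (Immuno), fibroblast genes to 20464 CPM in Cluster 14, Schwann cell genes to 33058 CPM in Cluster 15 and endothelial genes to 12396 CPM in Cluster 1. Of the 288 cells of Cluster 12, Lyz2 was found in 214, Cd74 in 123, Ccr2 in 86, H2-Aa in 81, Mrc1 in 58 and Ms4a7 in 55. The name macrophages is used for this cluster below as a short form, and other antigen-presenting cells may be among them. Cluster 13 (Unk) had 5 of 5 ependymal genes, at 3243 CPM.

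Levels were computed for each mouse with at least 10 cells in a cluster, as CPM of that cluster. S100b was highest in Cluster 8 at 2978 ± 1927 CPM (SD, n = 14 mice). It was lower in Cluster 2 (1627 ± 711 CPM, n = 11), Cluster 5 (1225 ± 585 CPM, n = 14) and the Schwann cells of Cluster 15 (1199 ± 387 CPM, n = 5), and in Cluster 7 it was at 406 ± 80.3 CPM (n = 15). Cluster 8 was above Cluster 2 in 10 of 11 mice, whereas Clusters 2 and 5 kept their order in 7 of 11 and Clusters 5 and 15 in 3 of 5, so these neighbours do not differ beyond their spread. The lowest mean was in Cluster 16, at 94.1 ± 96.8 CPM (n = 5). At least 1 UMI was found in 77.6% of the cells of Cluster 8 (692 of 892, exact Clopper-Pearson 95% interval 74.7 to 80.3%, median depth 1003.5 UMIs). In the macrophages of Cluster 12 the share was 17.7% at a median of 1015.5 UMIs, and the part of free RNA or doublets in it was not tested. After thinning every cell to 1000 UMIs and leaving out shallower ones, the shares were 75.9% and 12.4%.

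S100a1, a modulator of calcium-handling proteins in muscle and neurons, and S100a16, a broadly expressed member, were also highest in Cluster 8. S100a1 was at 541 ± 306 CPM there, 345 ± 125 CPM in Cluster 5 and 328 ± 167 CPM in the oligodendrocyte precursors of Cluster 11 (SD, n = 14 mice each), and Cluster 8 was above Cluster 5 in 10 of 14 mice. For S100a16, Cluster 8 had 411 ± 129 CPM, Cluster 11 had 341 ± 207 CPM and Cluster 4 had 248 ± 97.0 CPM, and the low was 5.77 CPM in Cluster 10 (Microglial). S100a13, which takes part in the release of Fgf1 without a signal peptide, was spread more evenly, at 303 ± 85.6 CPM in endothelial cells (n = 15), 273 ± 112 CPM in Cluster 8 (n = 14) and 263 ± 143 CPM in fibroblasts (n = 9). Its leading clusters kept their order in 9 of 14 and 6 of 9 mice and do not differ beyond their spread. With at least 30 cells per mouse and cluster fibroblasts led for S100a13, at 371.6 CPM. The leading cluster of the other 9 genes was the same in all alternatives that were run.

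Schwann cells had S100b UMIs in 72.5% of cells (150 of 207, 95% interval 65.8 to 78.4%, median depth 2571 UMIs) and S100a6 UMIs in 71.0% (147 of 207, 64.3 to 77.1%). Cluster 13, where ependymal genes were found, had a mean of 567 ± 239 CPM of S100b (SD, n = 10 mice) and the lowest mean of S100a13 in the 17 clusters, 9.59 CPM.

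Another group of members had their highest means outside the clusters named Astro, Oligo and OPC. Some were also found inside these, as in Cluster 5 with 269 ± 311 CPM of S100a6 and 182 ± 142 CPM of S100a10. S100a6, which binds annexins and the calcyclin-binding protein Cacybp, was at 3946 ± 627 CPM in Cluster 16 (SD, n = 5 mice), 3338 ± 2045 CPM in fibroblasts (n = 9), 1917 ± 1166 CPM in Schwann cells (n = 5) and 1227 ± 818 CPM in macrophages (n = 10), and was lowest, at 7.06 CPM, in the microglia of Cluster 6. Cluster 16 was above fibroblasts in 2 of 5 mice, so their order is not settled. S100a10, whose product does not bind calcium and holds annexin A2 in a complex at the plasma membrane, was at 638 ± 382 CPM in fibroblasts and 504 ± 359 CPM in macrophages. Its mean of 431 ± 699 CPM in Cluster 16 rests on 19 UMIs, with 491 and 1625 CPM in the 2 shallow libraries of 1 d and 3.17 to 18.9 CPM in the other 3 (pooled 37.1 CPM). S100a11, a partner of annexin A1, was at 2327 ± 1455 CPM in Cluster 16, 541 ± 247 CPM in fibroblasts, 468 ± 409 CPM in macrophages, 249.8 ± 142 CPM in pericytes (n = 15) and 157 ± 95.5 CPM in endothelial cells (n = 15). Cluster 16 was above fibroblasts in 5 of 5 mice and pericytes above endothelial cells in 14 of 15. S100a4, a binder of non-muscle myosin that is linked to cell motility, was highest in macrophages at 792 ± 603 CPM (n = 10), with 181 ± 70.8 CPM in Schwann cells and, apart from Cluster 16, at most 68.7 CPM elsewhere. In Cluster 16 its mean of 373 ± 573 CPM rests on 15 UMIs, with 1310 CPM in the shallow WT 1 d replicate 1 and a median of 15.6 CPM. Of the macrophages 34.7% held an S100a4 UMI (100 of 288, 95% interval 29.2 to 40.5%), against 0.0988% of Cluster 7 (1 of 1012), at median depths of 1015.5 and 2882 UMIs.

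**Figure D1:**
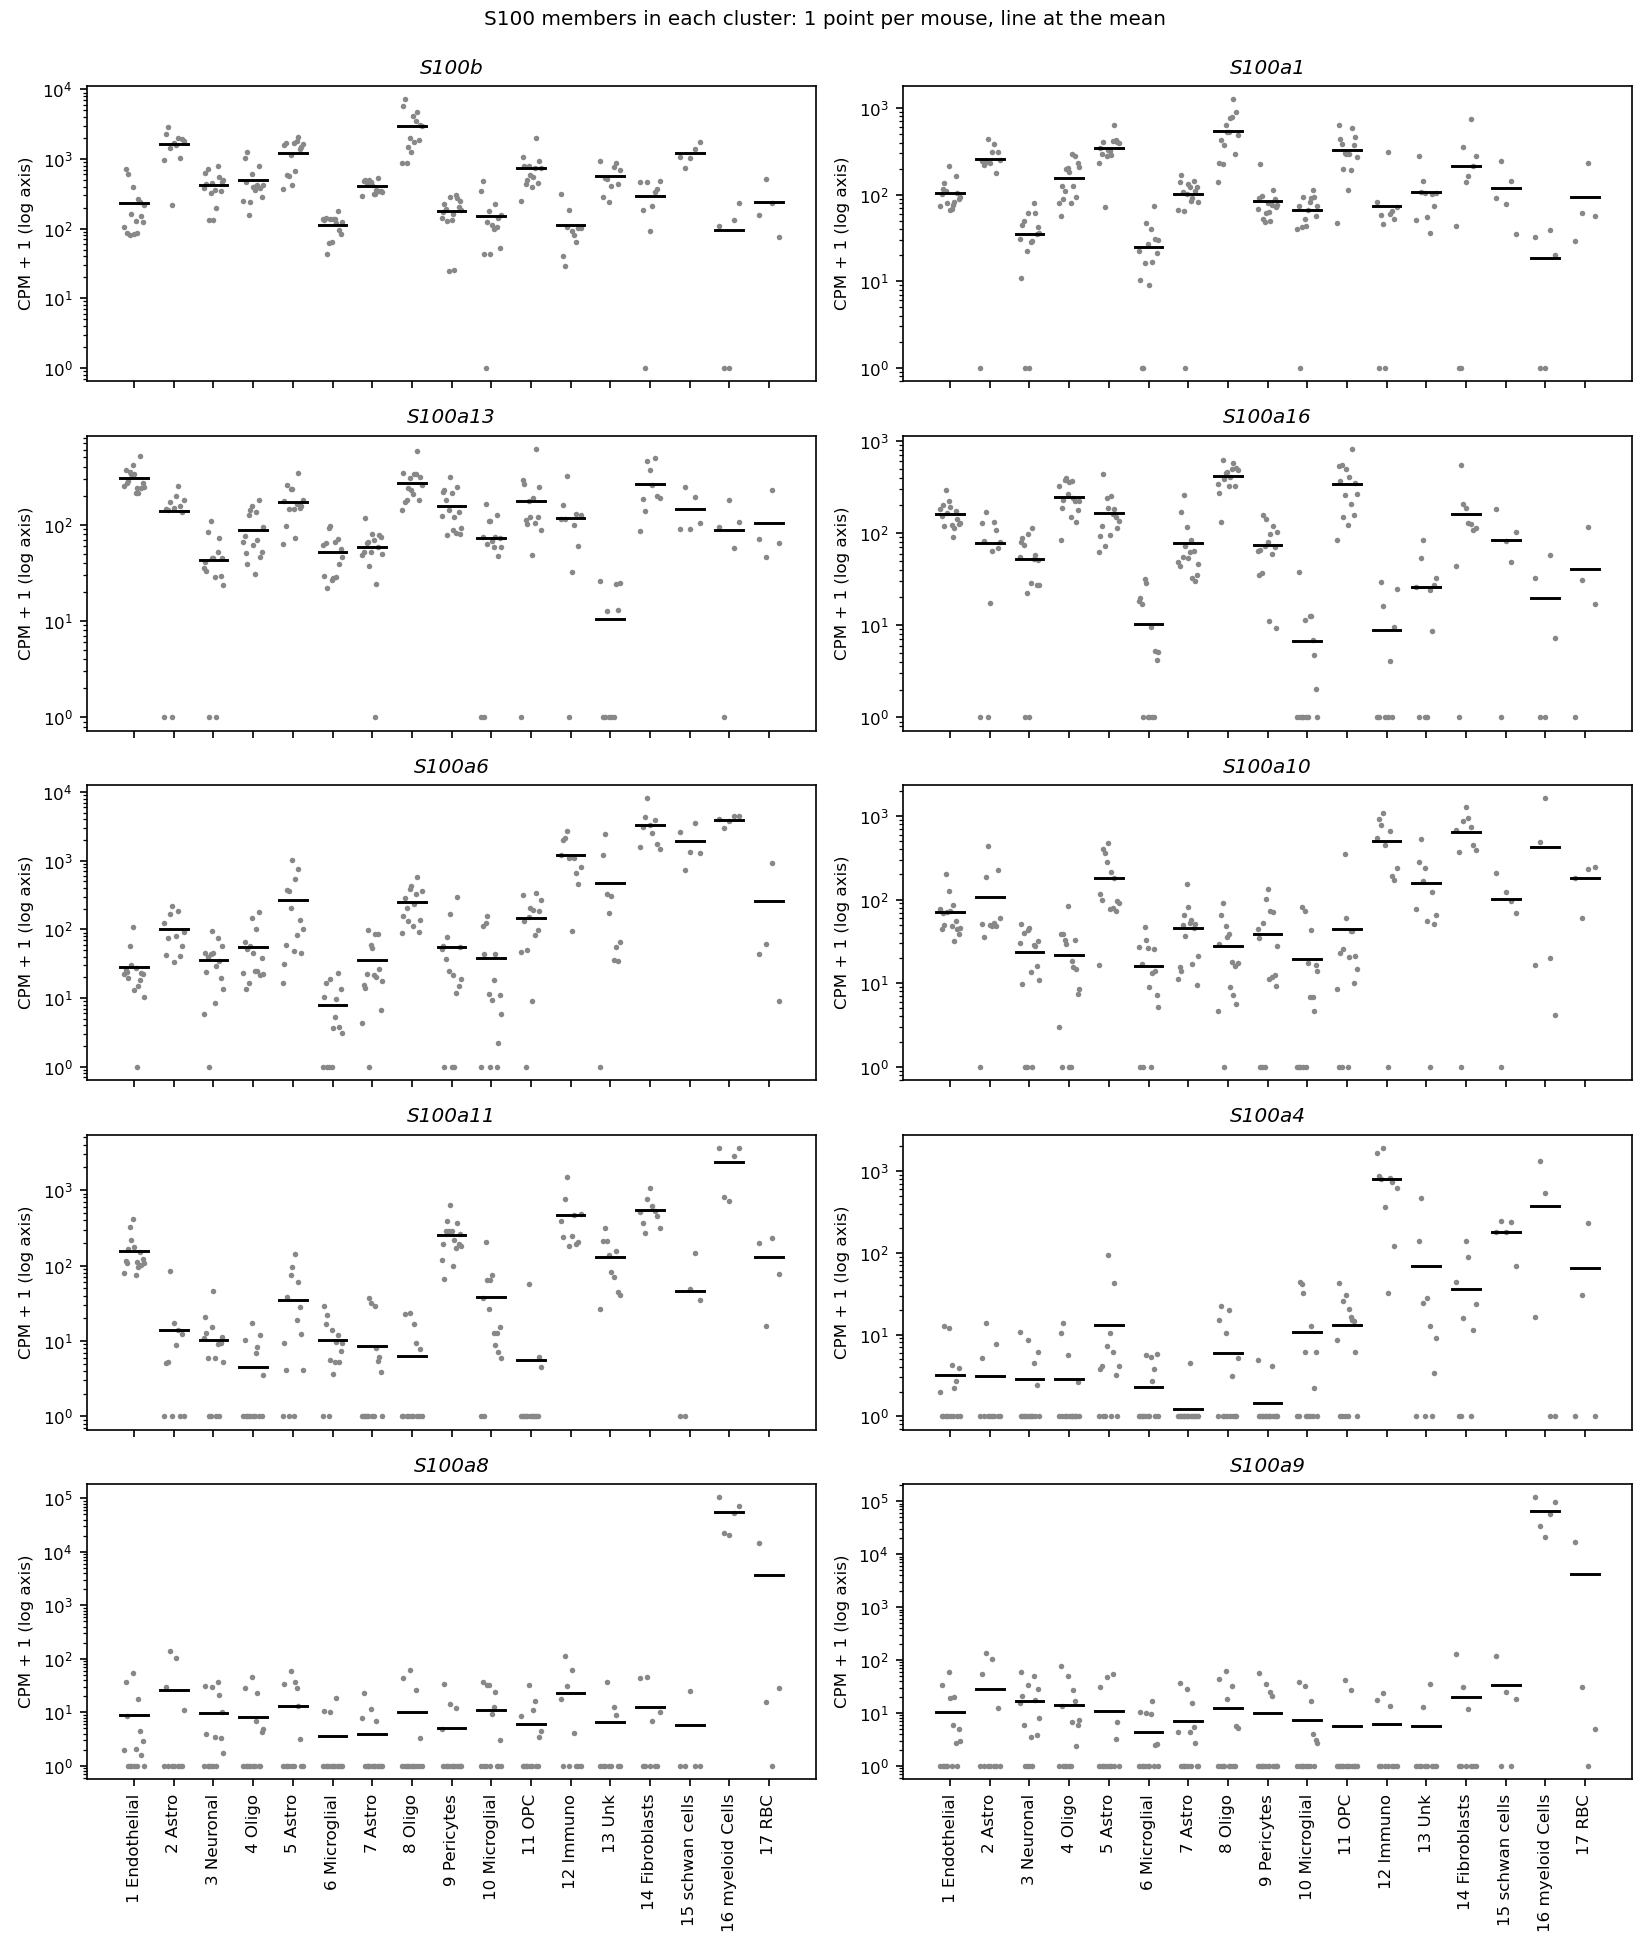
CPM (log axis, 1 added) of each S100 gene in each of the 17 clusters, with 1 point per mouse with at least 10 cells and a line at the mean. S100b, S100a1 and S100a16 have their highest means in Cluster 8, S100a13 in Cluster 1, S100a10 in Cluster 14, S100a4 in Cluster 12, and S100a6, S100a11, S100a8 and S100a9 in Cluster 16.

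Anxa2, encoding the partner of S100A10, had 825 ± 269 CPM in Cluster 16 (309 UMIs, beside the 19 of S100a10) and 641 ± 269 CPM in fibroblasts. In Cluster 5 it had 21.4 ± 24.3 CPM, where S100a10 had 182 ± 142 CPM. Anxa1, encoding the partner of S100A11, had 1168 ± 731 CPM in Cluster 16 and 319 ± 126 CPM in fibroblasts. Of the receptors of extracellular S100 proteins, Ager had 53 UMIs in all cells, and Tlr4 had 877, with 206 ± 203 CPM in Cluster 16 (42 UMIs) and 67.7 ± 26.5 CPM in the microglia of Cluster 6. Bsg, encoding basigin, a binding partner of S100A9, was at 8851 ± 2217 CPM in endothelial cells (n = 15).

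The effect of injury asked which members differed from uninjured mice within a cluster at each time. UMIs were summed per mouse and cluster and fitted with edgeR, with time and genotype as terms and p-values adjusted (Benjamini-Hochberg) over all genes tested in the cluster. A gene and a cluster are called a pair here, and only clusters with at least 2 mice in each arm were compared. At 1 d, 56 of 100 possible pairs of a member and a cluster passed the filter on low counts, and 0 had an adjusted p under 0.05, against 0.105% of all pairs tested. At an unadjusted p under 0.05 there were 12, 9 higher and 3 lower than in uninjured mice, where the background was 6.52%, and DESeq2 called 0 (background 0.180%). At 7 d, 0 of 64 tested pairs were called by edgeR (background 0.0597%), 7 had an unadjusted p under 0.05 (background 7.33%), 6 of them lower, and DESeq2 called 0 (background 0.107%). At 14 d the counts were 0 of 64 by edgeR (background 0.200%), 7 unadjusted (background 8.38%), 6 of them lower, and 0 by DESeq2 (background 0.267%). The median log2 fold change of the members that were tested was 0.31 at 1 d, −0.37 at 7 d and −0.07 at 14 d, beside −0.03, −0.02 and 0.01 over all genes. The 3 times share the uninjured mice.

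At 1 d every injured mouse was above every uninjured mouse for 7 pairs, where 6.20% of all pairs did so, and below for 1 pair, where 2.67% did so. The 7 were S100a6 and S100a11 in endothelial cells, S100a6 and S100a10 in Cluster 5, S100a13 in Cluster 4, and S100a16 in Cluster 8 and in pericytes, and the 1 below was S100a1 in pericytes. At 7 d there was 1 pair above (S100a1 in Cluster 8, background 5.27%) and 0 below (background 1.46%). At 14 d there was 1 pair above (S100a1 in Cluster 5, background 8.07%) and 0 below (background 1.90%). The 7 pairs at 1 d are of 56 tested, and the counts at 7 d and 14 d are of 64 and below the background.

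S100b, the glial member, varied widely between the uninjured mice themselves. In Cluster 8 it was at 869 and 5833 CPM in WT uninjured replicates 1 and 2 and 7172 CPM in cKO uninjured replicate 2, while cKO uninjured replicate 1 had too few cells. Mice at 1 d had 872 CPM (WT) and 1500.0 and 1976 CPM (cKO), those at 7 d had 1249.7 and 4196 CPM (WT) and 1778 and 3530.0 CPM (cKO), and those at 14 d had 4732 and 1892 CPM (WT) and 3107 and 2986 CPM (cKO). WT uninjured replicate 1 was as low as the lowest injured mouse, and the other uninjured mice were above all injured ones. The log2 fold changes were −2.45 (standard error 0.80, adjusted p = 0.957) at 1 d, −1.50 (adjusted p = 0.900) at 7 d and −1.26 (adjusted p = 0.728) at 14 d, and each injured mouse was below 2 of the 3 uninjured mice. Without WT uninjured replicate 1 the values at 1 d and 7 d were −2.92 and −2.04, both past the threshold (adjusted p = 0.0390 and 0.0368), and at 1 d it also passed without a filter on low counts (−2.33, adjusted p = 0.0383). At 14 d the value passed the threshold without replicate 1 (−2.12, adjusted p = 0.0222). Within replicate 1 alone, where 1 uninjured mouse is left, the values at 1 d and 7 d were 0.25 and 0.65, so the direction turned, as it did at 14 d.

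The same split by replicate was seen for S100b in other clusters. In endothelial cells S100b was at 106 and 708 CPM in WT uninjured replicates 1 and 2 and at 84.5 and 604 CPM in cKO. At 1 d it was at 79.6 CPM in WT and 159 and 400 CPM in cKO, with a log2 fold change of −1.18 without replicate 1, which leaves 1 mouse at 1 d. At 7 d it was at 83.3 and 128 CPM in WT and 84.2 and 269 CPM in cKO, and at 14 d at 239 and 149 CPM in WT and 125 and 214 CPM in cKO. Both uninjured mice of replicate 2 were above all mice at 7 d and 14 d, and both of replicate 1 lay among those at 7 d and below those at 14 d. The log2 fold change was −1.82 at 7 d (standard error 0.67, adjusted p = 0.406) and −1.47 at 14 d (adjusted p = 0.479). Both passed the threshold without a filter on low counts (−1.73 and −1.36, adjusted p under 0.001), with the series of animal numbers (under 10000 or not) as a covariate (−1.53 and −1.97, adjusted p = 0.0396 and 0.00184) and without replicate 1 (−2.17 and −2.30, adjusted p under 0.001), while at 14 d the direction turned without replicate 2 (0.91). Markers of oligodendrocytes moved with it, since the 6 genes, all detected and led by Mbp, summed to 7528 and 7357 CPM in the endothelial cluster of the uninjured mice of replicate 2 and to 975 and 1244 CPM in those of replicate 1. In 1155 of the 4201 cells of this cluster, which the authors had moved there from another cluster, S100b was at 1121 CPM, oligodendrocyte genes at 13022 CPM and endothelial genes at 4324 CPM. The 3046 other cells had 166, 1691 and 12996 CPM. The moved cells differed by library. In WT uninjured replicate 1 and the 4 shallow libraries they had 1074 to 5556 CPM of oligodendrocyte genes and 13110 to 14586 CPM of endothelial genes, in the uninjured mice of replicate 2 they had 21797 and 25889 CPM and 192 and 567 CPM, and in the other 7 mice with at least 10 such cells 7426 to 17194 CPM and 740 to 2452 CPM. In these other cells alone, S100b was at 84.9 and 335 CPM in WT uninjured mice and 85.9 and 316 CPM in cKO uninjured mice, and at 73.3, 78.8, 84.1 and 234 CPM at 7 d. The part of the moved cells in the fold changes was not tested.

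In Cluster 5, S100b was at 370.0 and 1604 CPM in WT uninjured mice and 1703 CPM in the cKO mouse with enough cells, and at 2057, 1370.2, 1463 and 1653 CPM at 14 d. WT uninjured replicate 1 was low and the other uninjured mice lay among those at 14 d. At 1 d and 7 d the replicate 1 mice had 422 to 675 CPM and the replicate 2 mice 1127 to 1839 CPM. In Cluster 7, which the paper treats as border-forming astrocytes, S100b lay between 289.9 and 523 CPM in all 15 mice, and with the genotypes together the mice at each time overlapped with the uninjured ones.

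**Figure D2:**
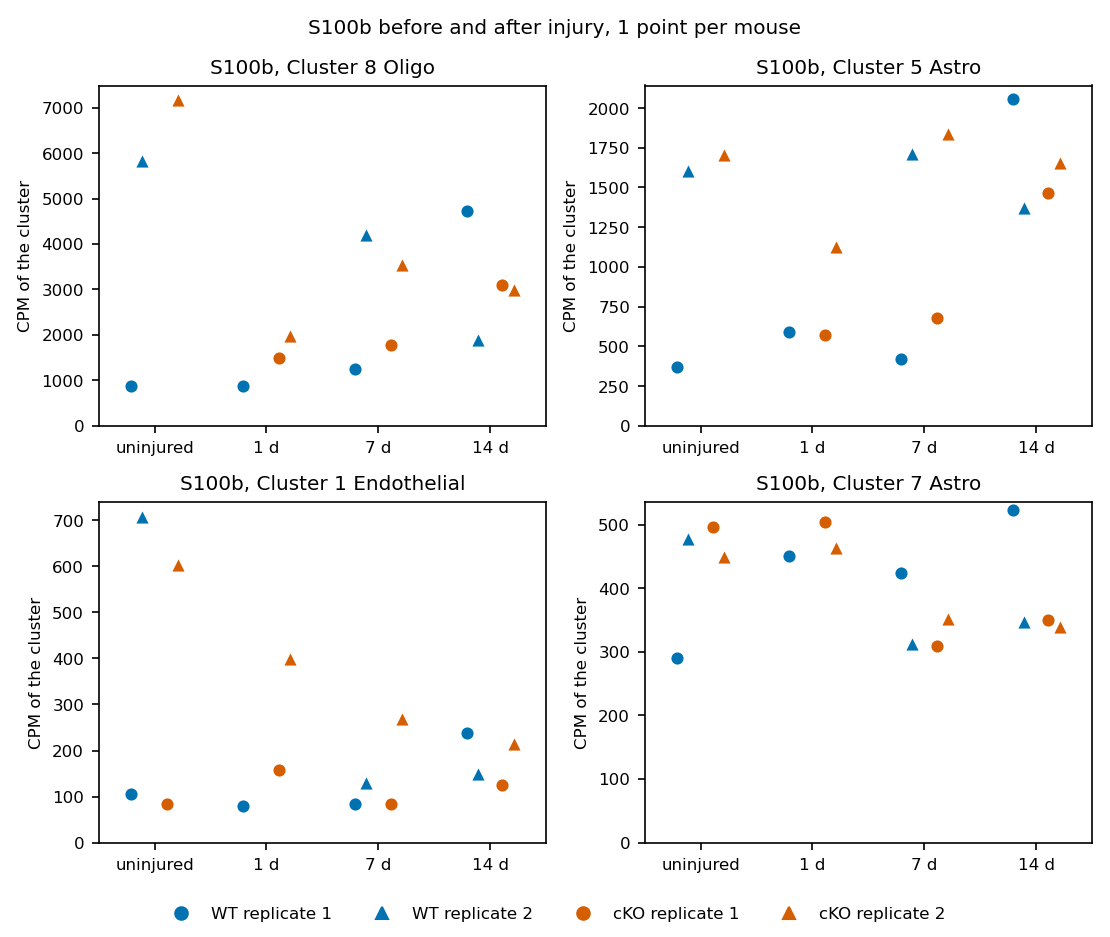
CPM of S100b in Clusters 8, 5, 1 and 7 by time after injury, with 1 point per mouse, WT in blue and cKO in orange, replicate 1 as circles and replicate 2 as triangles. Uninjured mice of replicate 2 are the highest in Clusters 8 and 1 (5833 and 7172 CPM in Cluster 8) and WT uninjured replicate 1 is low (869 CPM), while in Cluster 7 all mice lie between 289.9 and 523 CPM.

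The values of the annexin-binding members S100a6, S100a10 and S100a11 at 1 d follow, which were grouped after they were seen, so no count is given for the group. S100a11 in endothelial cells was at 79.7 and 112 CPM in WT uninjured mice and 108 and 166 CPM in cKO uninjured mice, while the mice at 1 d had 324 CPM (WT) and 218 and 413 CPM (cKO). All 3 mice at 1 d were above all 4 uninjured mice, and at 7 d and 14 d (73.5 to 173 CPM) the mice overlapped with uninjured ones again. WT 7 d replicate 2, which is WT 1 d in the cell names, had 73.5 CPM, below all 4 uninjured mice. The log2 fold change at 1 d was 1.27 (standard error 0.36, adjusted p = 0.511), and leaving out single mice gave 0.91 to 1.68. Without a filter on low counts it passed the threshold (1.23, adjusted p = 0.0187). Without the 4 libraries that share barcodes, which leaves 1 mouse at 1 d, it was 1.64. Without the moved cells, S100a11 was at 81.8, 142, 109 and 202 CPM in uninjured mice and 351, 223 and 453 CPM at 1 d, still without overlap. In pericytes S100a11 was at 118, 193, 64.4 and 289 CPM in uninjured mice and at 388, 284 and 636 CPM at 1 d, where 1 uninjured mouse overlapped (log2 fold change 1.35, adjusted p = 1.00).

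S100a6 in endothelial cells was low in every uninjured mouse, at 21.4, 24.9, 23.0 and 18.6 CPM, and was at 56.9, 29.7 and 109 CPM at 1 d, from 10, 6 and 68 UMIs. The groups did not overlap, and cKO 1 d replicate 2 was the highest (log2 fold change 1.73, adjusted p = 0.589, and 0.76 without that mouse), and without a filter on low counts it passed the threshold (adjusted p = 0.0167). S100a10 in the same cells was at 75.8, 43.6, 69.1 and 49.2 CPM in uninjured mice and 199, 69.4 and 125 CPM at 1 d, with 1 of the 3 injured mice inside the uninjured range (log2 fold change 1.07, adjusted p = 0.621).

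In the astrocytes of Cluster 5, S100a6 was at 15.4 and 30.5 CPM in WT uninjured mice and 59.3 CPM in cKO (1, 11 and 19 UMIs), and at 368, 357 and 204 CPM at 1 d (10, 5 and 98 UMIs). All 3 mice at 1 d were above all 3 uninjured mice (log2 fold change 2.17, standard error 1.02, adjusted p = 0.880, and 0.00345 with the series of animal numbers as a covariate). The log2 fold change was 1.63 without replicate 1 and 4.89 without replicate 2, each with 1 mouse left in an arm. The replicate 1 mice at 7 d had 1032 CPM (WT) and 533 CPM (cKO), the replicate 2 mice 47.7 and 81.0 CPM. At 14 d WT replicate 1 stood out at 754 CPM beside 44.8 to 137 CPM in the others. S100a10 in Cluster 5 was at 15.4, 116 and 96.7 CPM in uninjured mice and 405, 357 and 285 CPM at 1 d (11, 5 and 137 UMIs). The groups again did not overlap (log2 fold change 1.25, adjusted p = 0.880), and later mice were at 71.6 to 469 CPM. Without replicate 2, which leaves 1 uninjured mouse, the log2 fold change at 1 d was 4.62. S100a11 in Cluster 5 was at 0, 8.31 and 3.12 CPM in uninjured mice and 36.8, 0 and 72.8 CPM at 1 d (1, 0 and 35 UMIs), with a log2 fold change of 3.14 (adjusted p = 0.880, and 0.0142 with the series as a covariate).

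S100a6 in Cluster 7 was at 3.41, 14.5, 13.04 and 21.4 CPM in uninjured mice and 96.6, 0 and 58.4 CPM at 1 d (3, 0 and 17 UMIs), with a log2 fold change of 2.43 (adjusted p = 0.479). S100a10 in Cluster 7 had the smallest adjusted p of any member after injury. It was at 10.2, 14.5, 13.04 and 48.1 CPM in uninjured mice (3, 2, 1 and 9 UMIs) and at 64.4, 36.1 and 155 CPM at 1 d (2, 1 and 45 UMIs). Of the mice at 1 d, 2 were above all uninjured mice and 1 was below cKO uninjured replicate 2. The log2 fold change was 2.64 (standard error 0.64, adjusted p = 0.109). It was 0.84 (adjusted p = 0.906) without cKO 1 d replicate 2, and it passed the threshold without cKO uninjured replicate 2 (4.00, adjusted p = 0.00308), without WT 1 d replicate 1 (3.12, adjusted p = 0.0294), without the 4 libraries that share barcodes (3.34, adjusted p = 0.0322), without a filter on low counts (2.51, adjusted p = 0.00186) and with the series as a covariate (2.54, adjusted p = 0.0465).

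**Figure D3:**
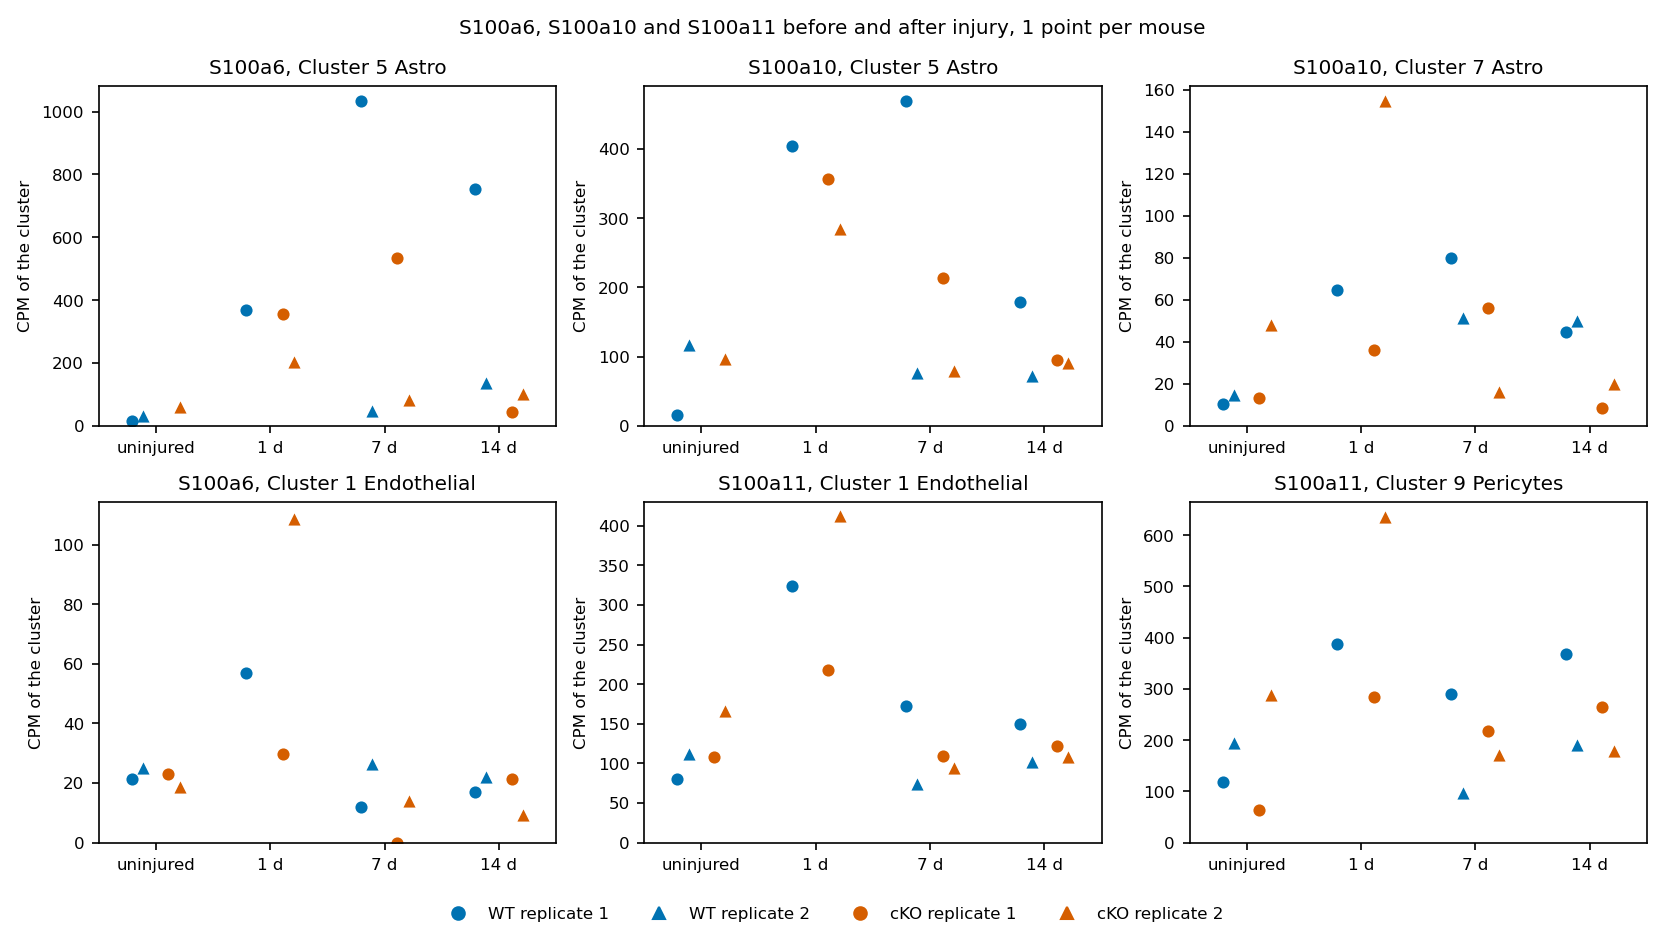
CPM of S100a6, S100a10 and S100a11 in the clusters with higher values at 1 d, by time after injury, with 1 point per mouse, WT in blue and cKO in orange, replicate 1 as circles and replicate 2 as triangles. S100a11 in Cluster 1 is at 218 to 413 CPM at 1 d and 79.7 to 166 CPM in uninjured mice, and S100a6 in Cluster 5 at 7 d is high in both replicate 1 mice alone.

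A list of 15 partner and receptor genes was examined with the members. Of its pairs 66, 75 and 75 were tested at 1 d, 7 d and 14 d, edgeR called 0 at each time (backgrounds 0.105%, 0.0597% and 0.200%), and 10 (9 higher), 10 (5 higher) and 13 (4 higher) had an unadjusted p under 0.05 (backgrounds 6.52%, 7.33% and 8.38%). DESeq2 called 1, 1 and 2, where it called 0.180%, 0.107% and 0.267% of all pairs, and its calls were Myh9 in endothelial cells at 1 d and 14 d (log2 fold changes 0.48 and 0.56), Bsg in Cluster 7 at 7 d (−0.92) and Bsg in Cluster 4 at 14 d (−1.35). For cKO against WT and for the difference in the injury effect, edgeR called 0 of 101 and 0 of 95 pairs (backgrounds 0.00148% and 0%), with 3 and 4 unadjusted (backgrounds 2.01% and 3.85%), and DESeq2 called 0 and 0. The smallest adjusted p was that of the fatty acid receptor gene Cd36 in Cluster 10 at 1 d (0.163), of Bsg in Cluster 7 at 7 d (0.256) and of the myosin gene Myh9 in Cluster 10 at 14 d (0.230). Partner genes were higher in every injured mouse than in every uninjured one in 9, 8 and 11 pairs at 1 d, 7 d and 14 d (backgrounds 6.20%, 5.27% and 8.07%), and lower in 1, 2 and 3 (backgrounds 2.67%, 1.46% and 1.90%). The lower ones were Tlr4 in Cluster 6 at 1 d (30.5 to 63.9 CPM against 69.0 to 85.1 CPM), Cacybp in Cluster 3 and Bsg in Cluster 7 at 7 d, and Bsg in Clusters 6 and 11 and in pericytes at 14 d. Anxa2 in endothelial cells was at 233 to 534 CPM in the 3 mice at 1 d and 119 to 178 CPM in the 4 uninjured mice, and in pericytes at 213 to 362 and 0 to 146 CPM, without overlap in either. Myh9 in endothelial cells was above all uninjured mice (289 to 401 CPM) in every mouse at 1 d, 7 d and 14 d (441 to 637 CPM over the 3 times).

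Of the other members in glia, S100a13 in Cluster 4 was at 64.8, 74.6, 49.8 and 38.2 CPM in uninjured mice and 126, 141 and 154 CPM at 1 d, without overlap (log2 fold change 1.13, adjusted p = 0.999). S100a16 in Cluster 8 was at 344, 271 and 130 CPM in uninjured mice and 626, 389 and 443 CPM at 1 d, also without overlap (log2 fold change 0.54, adjusted p = 1.00). S100a1 in Cluster 4 was at 79.0, 56.0, 125 and 89.2 CPM in uninjured mice and 281, 93.4, 228 and 205 CPM at 14 d, where WT replicate 2 lay inside the uninjured range (log2 fold change 1.06, standard error 0.39, adjusted p = 0.677). In the neurons of Cluster 3, S100a16 was at 53.9, 79.1, 86.6 and 73.7 CPM in uninjured mice and 57.5, 26.6, 50.01 and 26.2 CPM at 14 d. There 3 of 4 injured mice were below all uninjured ones (log2 fold change −1.04, standard error 0.39, adjusted p = 0.185, and 0.00438 with the series as a covariate).

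S100a4 in the macrophages of Cluster 12 could not be tested against uninjured mice, since only 1 of those had at least 10 cells there. It was at 1654 CPM in that mouse (WT replicate 2), 875 CPM in WT and 790.0 and 1920 CPM in cKO at 1 d, 362, 30.9 and 826 CPM at 7 d, and 731, 119 and 613 CPM at 14 d. The mice at 7 d overlapped with those at 1 d and at 14 d, and the 1 uninjured mouse was among the high ones. The lowest mouse at 1 d (790.0 CPM) was close to the highest at 14 d (731 CPM, from 10 cells). These 2 times were not tested against each other, and the share of all genes without overlap between them was not computed.

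S100a8 and S100a9, the calprotectin genes, lay almost wholly in Cluster 16, which held 96.3% of 41190 S100a8 UMIs and 96.5% of 51474 S100a9 UMIs. Their means there were 54749 ± 35363 and 65879 ± 41639 CPM (SD, n = 5 mice), with 20405 to 104134 CPM for S100a8. Together they made up 17.4% of all 512135 UMIs of the cluster, and 9.79% in the median cell and 38.4% in the highest. Yet 23 of its 119 cells had neither. An S100a9 UMI was found in 73.1% of its cells (95% interval 64.2 to 80.8%, median depth 2212 UMIs) and an S100a8 UMI in 79.8%. In Cluster 17, the red blood cells, S100a9 was at 4199 ± 8376 CPM (SD, n = 4), since 1193 of its 1199 S100a9 UMIs were in 1 cell and 113 of 119 cells had 0.

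In Clusters 1 to 15 the share of cells with an S100a9 UMI ran from 1.14% in Cluster 6 (median depth 780.5 UMIs) to 7.25% in Schwann cells (2571 UMIs). Endothelial cells were at 2.07% (95% interval 1.66 to 2.55%). Of the 207 Schwann cells, 103 came from cKO 7 d replicate 2, where 13.2% of the cells of Clusters 1 to 15 held an S100a9 UMI. No cell of these clusters held 10 S100a9 UMIs, against 77 cells in Cluster 16. By mouse, S100a9 in Clusters 1 to 15 was at 39.9 CPM in WT uninjured replicate 2, 43.3 CPM in cKO 1 d replicate 2 and 24.6 CPM in cKO 7 d replicate 2, and at most 10.6 CPM in the other 12 mice. These 3 libraries also had the most S100a9 UMIs in Cluster 16, at 7565, 3032 and 31159, from 23, 21 and 33 cells, but the next 2, cKO 14 d replicate 1 and WT 14 d replicate 1, had 2906 and 2611 there (from 2 and 3 cells) with 6.52 and 3.63 CPM in Clusters 1 to 15. The ratio of S100a8 to S100a9 was 0.799 in Cluster 16. Within the first 3 libraries it was 0.880, 0.936 and 0.740 there and 0.696, 0.938 and 0.745 in Clusters 1 to 15. Other libraries with both ratios had 4 to 42 S100a9 UMIs in Clusters 1 to 15. In Cluster 16 and Clusters 1 to 15 they had 0.167 and 1.25 (WT uninjured replicate 1) and 1.57 and 0.5 (cKO uninjured replicate 1). For cKO 7 d replicate 1 and WT 14 d replicate 1 the values were 0.881 and 1.4, and 1.05 and 1. For cKO 14 d replicates 1 and 2 they were 0.802 and 0.405, and 0.820 and 0.381. The part of free RNA or doublets in these UMIs was not tested.

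**Figure D4:**
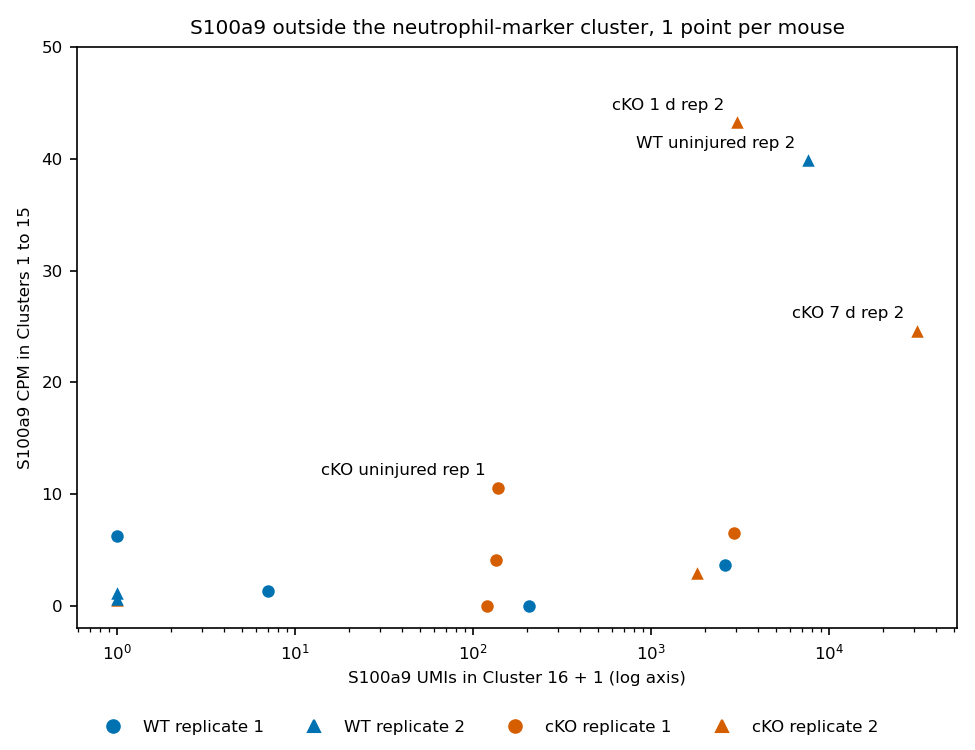
CPM of S100a9 in Clusters 1 to 15 against the number of S100a9 UMIs in Cluster 16 of the same mouse (log axis, 1 added), with 1 point per mouse, WT in blue and cKO in orange. The 3 mice above 20 CPM have 3032 to 31159 UMIs in Cluster 16, and the other mice, 2 of them with 2611 and 2906 UMIs, are at 10.6 CPM or lower.

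The cells of Cluster 16 were unevenly spread over the mice. Uninjured WT mice had 1 and 23 and uninjured cKO mice 1 and 0, mice at 1 d had 12 in WT and 10 and 21 in cKO, mice at 7 d had 2 and 0 in WT and 7 and 33 in cKO, and at 14 d there were 2 or 3 in each. Summed over all cells of a mouse, S100a9 was at 3.90 and 4174 CPM in WT uninjured mice and 187 and 0.509 CPM in cKO. Mice at 1 d had 380.4 CPM (WT) and 178 and 702 CPM (cKO), those at 7 d had 6.16 and 0.659 CPM (WT) and 112 and 3482 CPM (cKO), and those at 14 d had 853 and 1.25 CPM (WT) and 449 and 252 CPM (cKO). WT uninjured replicate 2 and cKO 7 d replicate 2 were the highest, and with the genotypes together the mice at each time lay inside the uninjured range. Both WT mice at 7 d, with 2 and 0 cells in Cluster 16, were below both cKO mice at 7 d, with 7 and 33. The share of all genes in this order was not computed, and WT 7 d replicate 2 is WT 1 d in the cell names. In sums over all cells, more cells of a type and more RNA per cell cannot be told apart.

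Over all cells, the 10 members were all tested at each time, and edgeR called 0 at 1 d (background 0.0608%), 0 at 7 d (background 0.0547%) and 0 at 14 d (background 0.0608%). At an unadjusted p under 0.05 there were 1 at 1 d (background 6.01%), 1 at 7 d (background 10.6%) and 0 at 14 d (background 10.9%), and DESeq2 called 0 at each time (backgrounds 0.393%, 1.79% and 1.63%). The member with these unadjusted values was S100b, with log2 fold changes of −1.37 at 1 d (adjusted p = 0.808) and −1.29 at 7 d (adjusted p = 0.429).

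The effect of the Ryk knockout on the members was examined next, with the genotype over all times, and then with the difference between the genotypes in the effect of injury. For cKO against WT, 90 of 150 pairs were tested in 15 clusters, and edgeR called 0 (background 0.00148%), with 4 at an unadjusted p under 0.05 (background 2.01%), 2 higher and 2 lower in cKO. DESeq2 called 0 (background 0.000859%). There was no pair with every cKO mouse above every WT mouse (0, background 0.411%) or below (0, background 0.179%). The 4 were S100a11 in macrophages (log2 fold change 1.63, adjusted p = 0.759), S100a11 in Cluster 10 (−1.44), S100a16 in endothelial cells (−0.36) and S100a6 in neurons (1.05), each of the latter 3 at an adjusted p of 1.00. S100a11 in macrophages was at 393 CPM in the only uninjured mouse with enough cells (WT), at 239, 181 and 191 CPM in WT mice at 1 d, 7 d and 14 d, and in cKO mice at 762 and 1507 CPM at 1 d, 248 and 471 CPM at 7 d and 204 and 487 CPM at 14 d. Both cKO mice were above the only WT mouse at each of these times, and the genotypes overlapped over all times. These WT values at 1 d, 7 d and 14 d came from 6, 2 and 6 UMIs. The share of all genes in this order was not computed. Over all cells edgeR called 0 members (background 0%), with 0 at an unadjusted p under 0.05 (background 1.50%), and DESeq2 called 0 (background 0%).

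For the difference in the injury effect, 73 of 110 pairs were tested, and edgeR called 0 (background 0%), with 9 at an unadjusted p under 0.05 (background 3.85%), 6 higher and 3 lower in cKO. Of the 6, 5 were S100a8 or S100a9 in Clusters 1, 2, 3 and 5, from 43 to 153 UMIs each. DESeq2 called 0 (background 0%). The smallest adjusted p was 0.0633, for S100a9 in Cluster 2, where S100a9 came from 48 UMIs in 1213 cells. It passed the threshold without WT uninjured replicate 1 (adjusted p = 0.0290), as did S100a9 in Cluster 3 (adjusted p = 0.0291), and these comparisons rest on the library that had the most S100a9 outside Cluster 16 among uninjured mice. By the sample titles, the log2 fold changes of S100a9 were 10.42 in Cluster 2, over groups without an S100a9 UMI, and 3.92 in Cluster 3. Both turned negative when mice were grouped by their cell names instead, so the direction depends on which labels are followed. In Clusters 2, 5, 6, 8, 10 and 11, uninjured cKO is 1 mouse. Over all cells edgeR called 0 members (background 0%), with 0 at an unadjusted p under 0.05 (background 5.30%), and DESeq2 called 0 (background 0.0964%).

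Other S100 genes were close to absent. S100a2, which was added after its values were seen, had 146 UMIs in all cells, S100a3 52, S100a7a 34, S100a14 9, S100g 4, and S100a5 and S100z had 0. The annotated S100a3 gene overlaps S100a2, so their counts may not be separate.

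The genes whose levels ran most like those of the members over the 17 clusters were found by Pearson's r of mean log2(CPM + 10), among 10194 genes with at least 50 CPM in a cluster, leaving out the members themselves. The points share libraries and depth, so r is a description. Outside the members, S100a8 was most like Camp (0.993), Rab44 (0.990) and Ngp (0.989), and S100a9 most like Ngp (0.992), Camp (0.989) and Ltf (0.981). S100b was most like Plekhb1 (0.937), Scd2 (0.934) and Fxyd7 (0.928), S100a1 most like Gstm5 (0.858), Cisd1 (0.856) and Mlf2 (0.842), and S100a16 most like Epn2 (0.888), Phactr1 (0.871) and Hsd17b7 (0.863). S100a11 was most like Ifitm2 (0.947), Plp2 (0.943) and Plscr1 (0.938). S100a10 was most like Ezr (0.788), Antxr2 (0.786) and Anxa1 (0.773), and S100a6 most like Cmah (0.792), Morf4l2 (0.787) and Antxr2 (0.783). S100a4 was most like Stat4 (0.851), Iqgap2 (0.842) and Metrnl (0.841), and S100a13 most like Uqcc2 (0.793), Pmvk (0.771) and Rab18 (0.767). The Cluster 16 values of S100a10 and S100a4 that enter r rest on 19 and 15 UMIs. Between members, some of which were more alike than these, r was highest for S100a8 and S100a9 (0.988), then S100a6 and S100a10 (0.842), S100a4 and S100a6 (0.823) and S100a1 and S100b (0.803), and lowest for S100a11 and S100b (−0.580).

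Apart from S100b on chromosome 10 (76253853 to 76261159 of mm10), the members lie on chromosome 3, 9 of 10 within 3.05 Mb from 90511034 to 93564643. S100a8 (ENSMUSG00000056054.9, 90668978 to 90670035) and S100a9 (ENSMUSG00000056071.12, 90692632 to 90695721) are 22596 bases apart on opposite strands. S100a1 and S100a13, also on opposite strands, have 42 bases between their annotated starts, and r of their levels over the clusters was 0.540.

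Promoters of 9 members, in 10 windows of 300 bases (250 before to 50 after the start), were found among 32851 windows from RefSeq (GRCm38.p6), and S100a10 had none. The windows of S100a1 and S100a13 share 204 bases. They were searched on both strands for TGANTCA (the letters of AP-1 sites), TTGCNNAA (C/EBP) and TATAAA (the TATA box), which 7.81%, 10.8% and 13.6% of all windows hold. TATAAA was found in S100a4 at −31, S100a8 at −30 and S100a9 at 1, counted from the start, TTGCNNAA in S100a9 at −236, and TGANTCA in S100a11 at −136 and −38 and in the second S100a16 window at −192. A match is a description of letters. The 30 bases before the RefSeq start of S100a8 (chr3:90669041-90669070, plus strand) and the 250 bases before that of S100a9 (chr3:90695722-90695971, minus strand) are shown because these genes had the most alike levels of any pair of members, with matches in capitals. The GENCODE first exon of S100a8 starts upstream of the RefSeq start, so fewer bases are given for it, and the TATAAA of S100a9 lies after the stretch shown.
S100a8: TATAAAagcagctgacacttagcctcacat
S100a9: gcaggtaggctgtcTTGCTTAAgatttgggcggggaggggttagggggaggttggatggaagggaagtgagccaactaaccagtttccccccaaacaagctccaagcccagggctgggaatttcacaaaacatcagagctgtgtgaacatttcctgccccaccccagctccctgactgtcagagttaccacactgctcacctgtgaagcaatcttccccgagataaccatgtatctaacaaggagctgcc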

How the data were processed

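Single-cell RNA was measured in 16 mice. The authors counted UMIs with Cell Ranger on mm10 and deposited raw counts without normalization for 18203 cells with under 25% mitochondrial UMIs and over 200 genes, clustered in R 4.1.2 with Seurat, Harmony and Leiden at resolution 0.5. The deposited cell table gives the percent of mitochondrial UMIs of each cell, the batch and the cluster. Gene positions came from a GENCODE annotation of mm10, matched by symbol.

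UMIs were summed per mouse and cluster (at least 10 cells, and 50 cells per mouse, which left 15 mice) and tested with edgeR 4.0.16 (TMM, filterByExpr, quasi-likelihood) in R 4.3.3 with limma 3.58.1, with time and genotype as terms, Benjamini-Hochberg adjustment over all genes tested in a cluster and a threshold of 0.05. The difference in the injury effect was an interaction term of genotype and injury at any time. DESeq2 1.42.0 was the other tool. CPM and shares came from pandas 2.3.3, scipy 1.17.1 and numpy 2.4.6, and figures from matplotlib 3.10.9, under Python 3.11.15. Intervals for shares are exact binomial and cover counting error only. No p is given between clusters, which were made from the same values.

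The alternatives were DESeq2, no filter on low counts, at least 30 cells, the replicate number as a block, the series of animal numbers (under 10000 or not) as a covariate, a mean per condition, the conditions of the cell names, clusters before cells were moved, means over cells, and each mouse or replicate left out. Leaving out the libraries that share barcodes, the shared cells, or Clusters 16 and 17 from sums over all cells was chosen after seeing the data. The batch equals the replicate number. As a check of this pairing, deviations of mice from group means were correlated between the 7 groups with both replicates over 4344 genes, with r from −0.486 to 0.562 and a median of 0.204, and 12 of 21 pairs of groups were above 0.1. The members and lists were chosen with earlier results of these data known. All 10 members were described, at most 3 partner genes per comparison were named by the smallest adjusted p beside Anxa1, Anxa2, Ager and Tlr4, and Myh9 in endothelial cells, the DESeq2 calls and S100a2 were added after their values were seen. Doublets were not called, and neither doublets nor free RNA were removed.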

Additional observations from a re-analysis of the deposited data

How the results depend on the processing

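edgeR called 0 members in each of the 5 comparisons within clusters, and the count stayed at 0 with DESeq2, the replicate block, a mean per condition, the conditions of the cell names, and without the cells that share barcodes. Over all cells it was 0 in every alternative that was run. With other settings members passed the threshold, given here for 1 d, 7 d, 14 d, cKO against WT and the difference in the injury effect, with the share of all pairs called under the same setting in parentheses. With the animal number series as a covariate there were 3, 2, 9, 0 and 0 (0.390, 1.13, 2.86, 0.0953 and 0.0333%), with at least 30 cells 0, 2, 1, 0 and 0 (0.0477, 0.187, 0.562, 0.00181 and 0.00901%), without a filter on low counts 4, 1, 3, 0 and 1 (0.164, 0.213, 0.457, 0.0278 and 0.0245%), and without the 4 libraries that share barcodes, chosen after seeing the data, 1, 0, 0, 2 and 0 (0.151, 0.0543, 0.261, 0.422 and 0.00226%). Without replicate 1 there were 8 (6 higher), 14 (all lower), 24 (all lower), 0 and 5 (all higher), where calls over all genes were also more frequent (1.84, 7.09, 8.80, 0.249 and 0.117%). Without replicate 2 there were 2, 4 and 10 (all higher), 1 (lower) and 0 (0.582, 0.569, 3.08, 0.0559 and 0.906%). With 1 mouse left out in turn the counts ranged from 0 to 1, 0 to 1, 0 to 2, 0 to 0 and 0 to 2 (0.0362 to 0.256, 0.0160 to 0.642, 0.0483 to 0.910, 0 to 0.0220 and 0 to 0.0513%). The 9 at 14 d with the covariate were S100b in Clusters 1, 2 and 3, S100a9 in Clusters 2 and 3, S100a8 in Cluster 1, S100a10 and S100a16 in Cluster 3, all lower, and S100a6 in Cluster 5, higher. The 2 at 7 d were S100b in Clusters 1 and 2. With at least 30 cells it was S100b in Cluster 2 at 7 d and 14 d and S100a16 there at 7 d. Where leaving out mice left 1 in an arm, it was assumed to vary like the other groups.

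Of the pairs followed through all alternatives, directions turned for S100b and S100a9. S100b without replicate 2 had log2 fold changes of 0.91 in Cluster 1 at 14 d (main fit −1.47), 2.83 in Cluster 5 at 14 d (main fit −0.09), and 0.25, 0.65 and 2.11 in Cluster 8 at 1 d, 7 d and 14 d (main fit −2.45, −1.50 and −1.26). S100b in Cluster 5 at 14 d was also positive with the conditions of the cell names (0.28), the replicate block (0.67), and without cKO 14 d replicate 1 (0.037), cKO uninjured replicate 2 (0.15) or WT uninjured replicate 2 (0.47). S100a9 in Cluster 2 at 14 d was 2.36 without WT uninjured replicate 2 (main fit −3.58, adjusted p = 0.278). The uninjured mice left there had 0 S100a9 UMIs, and at 14 d cKO replicate 1 had 1 and the others 0. The 2.36 is thus a fold over a group at 0. With the conditions of the cell names, the difference in the injury effect for S100a9 was −0.66 in Cluster 2 and −0.036 in Cluster 3 (main fit 10.42 and 3.92). By the sample titles, the uninjured cKO mouse and the injured WT mice of Cluster 2 had 0 S100a9 UMIs, so 10.42 is a fold over groups at 0. Over all of the fits that left out mice, the lowest values of these results were −2.30 for S100b in Cluster 1 at 14 d, −0.76 in Cluster 5 at 14 d, −2.92, −2.14 and −2.12 in Cluster 8 at 1 d, 7 d and 14 d, and −7.76 for S100a9 in Cluster 2 at 14 d. Besides S100b in Cluster 5 at 14 d, 4 pairs passed the threshold in opposite directions without replicate 1 and without replicate 2, S100a10 in Cluster 5 at 7 d (−1.08 and 4.58) and 14 d (−1.05 and 3.85), and in Cluster 11 at 7 d S100a13 (−1.78 and 7.59) and S100a16 (−1.49 and 2.76). Without replicate 2 the only uninjured mouse of Clusters 5 and 11 is WT replicate 1. It had 0 CPM of S100a13 in Cluster 11, so 7.59 is a fold over 0 counts in 1 mouse. The causes were not tested. Of the other values for single genes under the alternatives, 651 kept their direction and side of the threshold or moved by less than the spread, 38 came to pass the threshold and 37 moved by more than the spread.

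The 4 shallow libraries are the replicate 1 mice of 1 d and 7 d, and at these times also the only ones of the lower animal number series, so depth, series and replicate cannot be told apart among the mice of 1 d and 7 d. Low counts limit S100a4 in glia, with 1 UMI in Cluster 7 and 19 in Cluster 5, and S100a10 in Cluster 7, with 1 to 9 UMIs in each uninjured mouse.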
